A study of Mus musculus with 6 samples.

Results

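The 33 genes described here are expressed by T lymphocytes and natural killer (NK) cells: the chains and kinases of the T-cell receptor, adhesion and costimulatory receptors, transcription factors of the T lineage, the coreceptor and regulators of helper and regulatory T cells, and the granule proteins and receptors of cytotoxic T and NK cells. They were taken by gene symbol from a list of known lineage genes, and all 33 symbols were among the 38926 in the count tables. Dorsal root ganglia, which hold the cell bodies of sensory neurons, were taken from lumbar levels 3, 4 and 5 on the side of the injected paws of wild-type female C57BL/6 mice aged 8 to 10 weeks. Each library was made from ganglia pooled from 4 animals, and 3 pools from mice given vehicle were compared with 3 pools from mice given vincristine, a vinca alkaloid that binds tubulin and causes painful neuropathy in patients. The labels give the vincristine dose as a cumulative 40 µg injected into the plantar side of the paw, while the names of the deposited tables carry 10 µg. The comparison asks what vincristine given at the paw does to gene expression in the ganglia that supply it, and here it is read for the T and NK genes. In whole tissue, fewer cells of a type and less RNA per cell cannot be told apart.

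T cells recognise peptides held on MHC molecules through a receptor whose signal is passed on by the CD3 chains, the kinases Lck and Zap70 and the adaptor Lat. CD4 marks helper and regulatory T cells and CD8 marks cytotoxic T cells, which kill with perforin and granzymes, as NK cells do. NK cells carry no rearranged antigen receptor and read activating and inhibitory receptors such as NKG2D and CD94 instead. Few of either cell are present in the ganglia of healthy rodents, and both have been described there after nerve injury.

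Reads of these genes were few. The 33 genes took 5542 reads over the 6 libraries together, from 4 reads for Ptcra to 1019 for Bcl11b, with a median of 84, and 17 of them had fewer than 100 reads in all. Reads in genes were 17967934, 19546519 and 19917055 in vehicle replicates 1, 2 and 3, and 12374331, 19406150 and 26346304 in vincristine replicates 1, 2 and 3. Levels are therefore given as reads and as CPM, counts scaled to library size by the TMM method of edgeR. After a filter on low counts, 25 of the 33 genes were tested among 16706 genes. Those under the filter were Cd3d, Ptcra, Cd5, Foxp3, Ctla4, Cd8b1, Gzmb and Prf1.

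**Figure D1:**
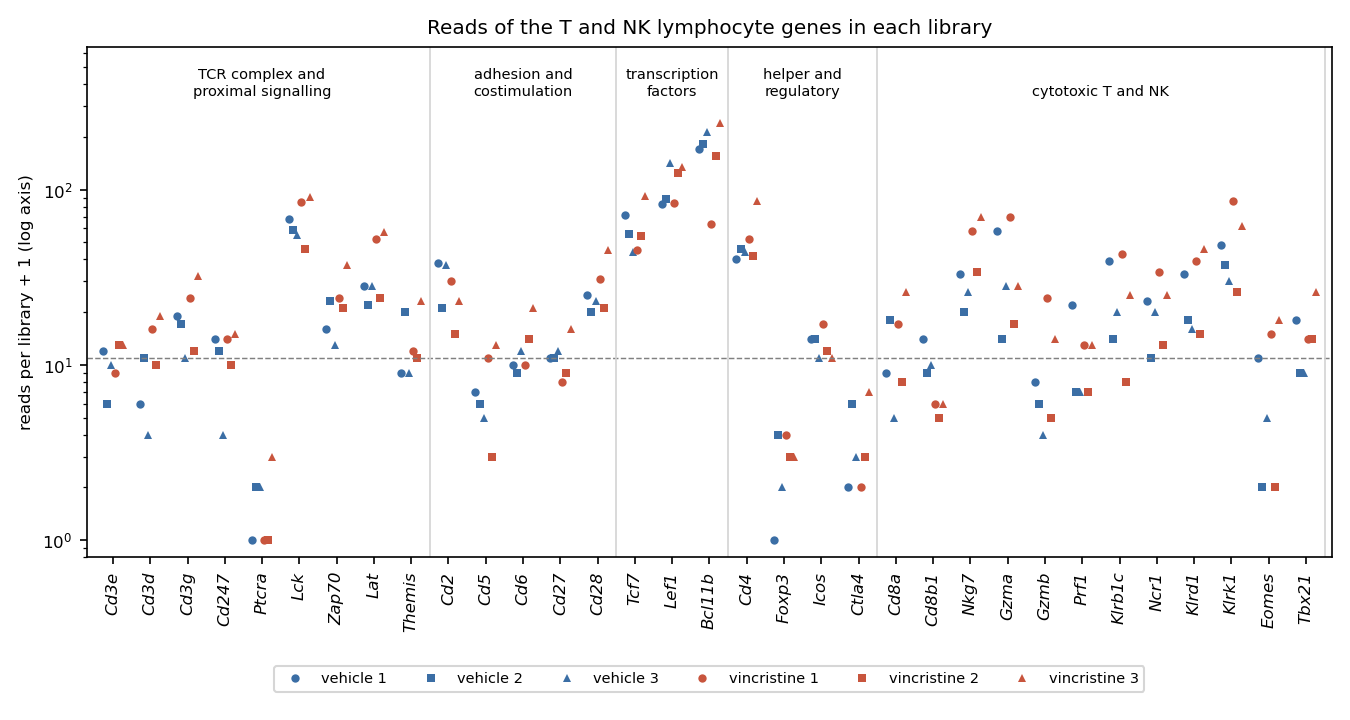
Reads of each of the 33 genes (horizontal axis, grouped by role) in each of the 6 libraries, plotted as reads + 1 on a log axis, with vehicle in blue and vincristine in red; each point is 1 library, not scaled for depth, and the dashed line marks 10 reads. Bcl11b, with 63 to 240 reads, was the highest gene in every library but vincristine replicate 1, while Ptcra, Foxp3 and Ctla4 had at most 6 reads in any library.

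Vincristine replicate 1 stood apart from the other libraries: the first principal component of all tested genes held 56.4% of the variance and separated it. Sums of marker genes differed in it as well. Neutrophil markers summed to 7260 CPM there, against 2340 and 2700 CPM in the other vincristine pools and 756 to 1310 CPM in the vehicle pools. Platelet and megakaryocyte markers summed to 219 CPM there, against 58.3 and 105 CPM in the other vincristine pools and 40.5 to 69.6 CPM with vehicle. Sensory neuron markers, present in every library, were at 3980 CPM there and at 8610 to 11400 CPM in the vehicle pools. It also had the fewest reads in genes, and 24.8% of its tallied alignments lay outside genes, against 14.8% to 17.0% in the other libraries. Fold changes of tested genes are therefore given also without that library where they moved by over 1.5 times or changed sign, and the part of these measures in the T and NK values was not tested.

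No T or NK gene passed the test. At an adjusted p under 0.05, edgeR called 0 of the 25 genes, and DESeq2 also called 0. Over all 16706 genes, edgeR called 60, a share of 0.359%, and DESeq2 called 569, a share of 3.41%. Before adjustment, a p under 0.05 was reached by 1 of the 25 genes, Nkg7, with a higher level, and by 0 with a lower level. The shares among all tested genes were 8.10% higher and 3.27% lower. The log2 fold change of vincristine over vehicle was positive for 22 of the 25 genes and negative for Cd2, Cd27 and Bcl11b, with a median of 0.48. Of all tested genes, 49.3% were positive, with a median of -0.00. Without vincristine replicate 1, the median of the same 25 genes was 0.16, with 16 of the 25 positive and 9 negative.

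The measurements did not narrow the changes of these genes far. Their standard errors had a median of 0.44 on the log2 scale, against 0.18 over all tested genes. The 95% interval included 0 for 24 of the 25 genes and included a log2 fold change of 1, a doubling, for 20. Half-widths of the intervals ran from 0.53 for Lef1 to 2.28 for Eomes. For most of these genes the interval held both no change and a doubling. Over all members, summed levels were 52.0, 40.0 and 41.5 CPM with vehicle and 76.0, 37.9 and 50.4 CPM with vincristine. The lowest and the highest of these sums were both in the vincristine group, and the groups overlapped.

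**Figure D2:**
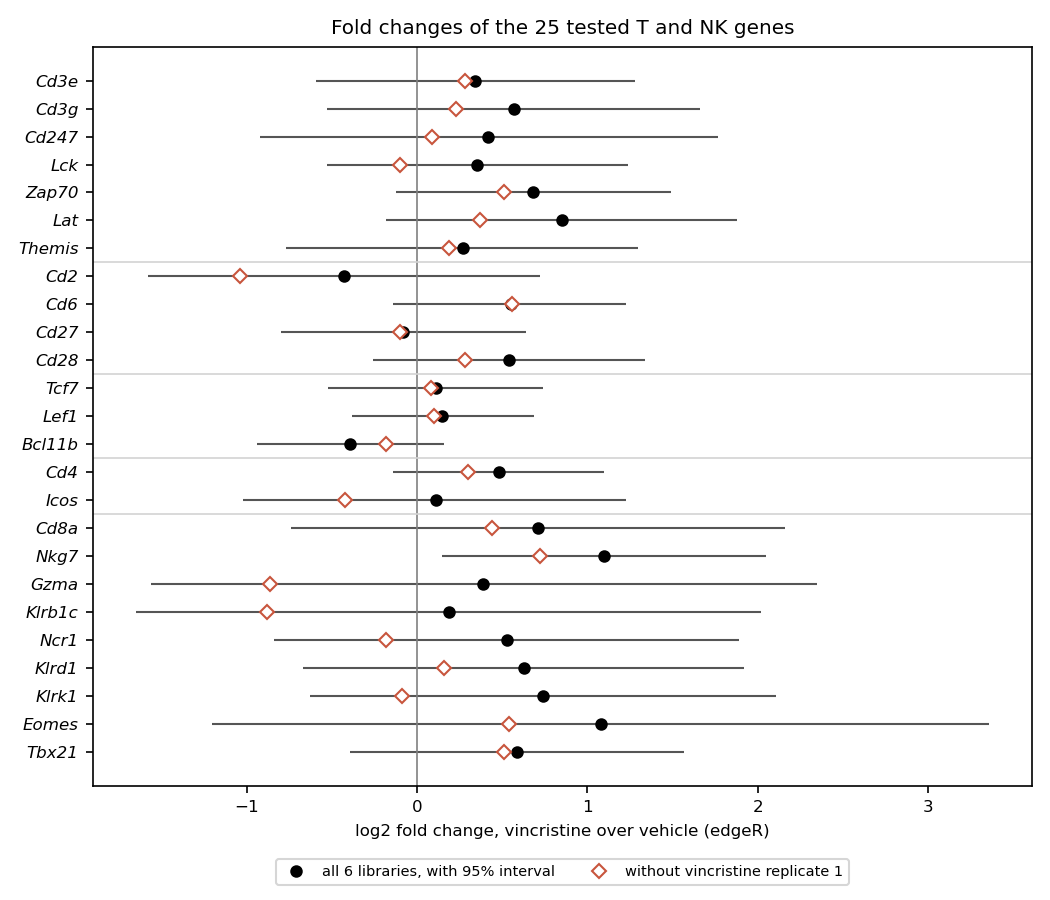
The log2 fold change of vincristine over vehicle (horizontal axis) for the 25 tested genes (vertical axis), with black points and lines for the edgeR estimate and its 95% interval from 3 and 3 libraries, and open diamonds for the estimate without vincristine replicate 1. Of the 25 intervals, 24 include 0; without that library the estimates of Gzma and Klrb1c move to -0.86 and -0.88.

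The T-cell receptor complex and its proximal signalling genes made up 9 members, of which 7 were tested. All 7 had positive fold changes, from 0.27 to 0.85 with a median of 0.42, and 0 passed the test; without vincristine replicate 1 the median of the same 7 genes was 0.23. Cd3e, a signalling chain of the receptor, had 11, 5 and 9 reads in vehicle replicates 1, 2 and 3 and 8, 12 and 12 reads in vincristine replicates 1, 2 and 3. In CPM these were 0.616, 0.261 and 0.450 against 0.619, 0.627 and 0.462, so that the groups overlapped. Its log2 fold change was 0.34 ± 0.40 (SE; adjusted p = 0.773, edgeR). Cd3g, another CD3 chain, had 18, 16 and 10 reads with vehicle and 23, 11 and 31 with vincristine. The gene was highest in vincristine replicate 1, and its fold change of 0.57 ± 0.47 became 0.23 without that library. Cd3d, the neighbouring CD3 chain, was under the filter, with 5, 10 and 3 reads with vehicle and 15, 9 and 18 with vincristine. Fitted without the filter, Cd3d gave a log2 fold change of 1.21 ± 0.54 (adjusted p = 0.568, edgeR). Cd3e, Cd3d and Cd3g lie side by side on chromosome 9, at chr9:44998740-45009627, chr9:44981786-44987339 and chr9:44969572-44980431 of GRCm38 in GENCODE M21.

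Lck, the Src-family kinase that phosphorylates the CD3 chains, had the highest count of the group. Its reads were 67, 58 and 54 with vehicle and 84, 45 and 90 with vincristine, or 3.75, 3.02 and 2.70 CPM against 6.50, 2.35 and 3.47 CPM. The lowest and the highest level were both in vincristine pools, and the fold change of 0.35 ± 0.38 became -0.10 without vincristine replicate 1. Zap70, the kinase recruited to the phosphorylated chains, was at 0.840, 1.15 and 0.600 CPM with vehicle and 1.78, 1.04 and 1.39 CPM with vincristine. Vehicle replicate 2 lay above vincristine replicate 2, and the log2 fold change was 0.68 ± 0.34, with an interval of -0.12 to 1.49 (adjusted p = 0.510, edgeR). Lat, the membrane adaptor that Zap70 phosphorylates, had 27, 21 and 27 reads with vehicle and 51, 23 and 56 with vincristine. Its fold change of 0.85 ± 0.44 (adjusted p = 0.527, edgeR) became 0.37 without vincristine replicate 1. Cd247, the zeta chain, and Themis, a regulator of thymocyte selection, had 3 to 22 reads per library and fold changes of 0.42 ± 0.57 and 0.27 ± 0.44, or 0.09 and 0.19 without that library. Exons of Cd247 overlap those of Pou2f1 on the opposite strand, and whether the authors counted by strand is not stated in the labels, which leaves reads of this pair of genes possibly mixed. The same limit holds for Cd3e, Themis, Lef1, Foxp3 and Eomes, whose exons also overlap annotated exons on the opposite strand.

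Ptcra, the pre-T-cell receptor alpha chain of immature thymocytes, was at the limit of detection. It had 0, 1 and 1 reads with vehicle and 0, 0 and 2 with vincristine. A count of 0 allows up to 3 reads, which is 0.168 CPM in vehicle replicate 1, 0.231 CPM in vincristine replicate 1 and 0.156 CPM in vincristine replicate 2. These limits cover counting error only, since reads without molecular identifiers are not independent molecules. The constant region of the T-cell receptor alpha chain, Trac, was the only one of 6 constant regions found in the tables that was tested, at 0.76 ± 0.58 (adjusted p = 0.659, edgeR), or 0.41 without vincristine replicate 1. Summed over the 6, constant regions had 26, 35 and 26 reads with vehicle and 62, 24 and 68 with vincristine.

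Among the 5 adhesion and costimulation receptors, 4 were tested and 0 passed, with 2 fold changes positive and 2 negative. Cd2, which binds CD48 on other cells, had 37, 20 and 36 reads with vehicle and 29, 14 and 22 with vincristine. Levels of 2.07, 1.04 and 1.80 CPM stood against 2.25, 0.731 and 0.848 CPM: vincristine replicate 1 was the highest of all 6 libraries and the other vincristine pools were the lowest. The log2 fold change was -0.43 ± 0.49 with all libraries and -1.04 without vincristine replicate 1 (adjusted p = 0.275, edgeR). Cd6, a scavenger-type receptor that binds ALCAM, was the only member with every vincristine pool above every vehicle pool, as were 11.5% of all tested genes. Its reads were 9, 8 and 11 with vehicle and 9, 13 and 20 with vincristine, or 0.504, 0.417 and 0.550 CPM against 0.697, 0.679 and 0.771 CPM. The fold change of 0.55 ± 0.29 (adjusted p = 0.545, edgeR) was 0.56 without vincristine replicate 1. Cd28, the main costimulatory receptor of naive T cells, was at 0.54 ± 0.34 with all libraries and at 0.28 without that library. Cd27, a TNF-receptor family costimulator, was at -0.08 ± 0.31 with 7 to 15 reads per library. Cd5, a negative regulator of receptor signalling, had 2 to 12 reads per library and was under the filter.

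The transcription factors Tcf7, Lef1 and Bcl11b carried more reads than most members, and their levels were closer between pools. Tcf7, which encodes TCF-1 of naive and memory T cells, had 71, 55 and 43 reads with vehicle and 44, 53 and 91 with vincristine, with a fold change of 0.11 ± 0.27. Lef1, its relative in the same family of Wnt-responsive factors, had 82, 87 and 141 reads against 83, 124 and 134, with a fold change of 0.15 ± 0.23. Without vincristine replicate 1 these were 0.08 and 0.10. Bcl11b, which commits precursors to the T lineage and is also known from neurons of the brain, had 169, 181 and 211 reads with vehicle and 63, 155 and 240 with vincristine. Scaled for depth, its levels were 9.47, 9.43 and 10.5 CPM against 4.88, 8.09 and 9.25 CPM. Every vincristine pool lay below every vehicle pool, as in 9.51% of all tested genes. The log2 fold change of Bcl11b was -0.39 ± 0.23, with an interval of -0.94 to 0.16 (adjusted p = 0.581, edgeR), and -0.18 without vincristine replicate 1. Sensory neuron markers were also lowest in vincristine replicate 1, with a median log2 fold change of -0.45 over 12 genes and -0.11 without that library, and the share of the Bcl11b reads that came from T cells was not measured. Without these 3 factors, the other 30 members summed to 34.0, 23.1 and 21.7 CPM with vehicle and 61.2, 20.6 and 32.5 CPM with vincristine.

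Of the 4 helper and regulatory genes, 2 were tested and 0 passed. Cd4, the coreceptor for MHC class II, had 39, 45 and 43 reads with vehicle and 51, 41 and 85 with vincristine. The vehicle pools were close together at 2.18, 2.34 and 2.15 CPM, while the vincristine pools were at 3.95, 2.14 and 3.28 CPM. Vincristine replicate 2 was thus the lowest of all libraries, and the other vincristine pools the highest. The log2 fold change of Cd4 was 0.48 ± 0.26, with an interval of -0.14 to 1.10 (adjusted p = 0.552, edgeR), and 0.30 without vincristine replicate 1. Icos, the inducible costimulator, had 10 to 16 reads in each library and fold changes of 0.11 ± 0.48 with and -0.42 without that library. Foxp3, the lineage factor of regulatory T cells, had 0, 3 and 1 reads with vehicle and 3, 2 and 2 with vincristine. Ctla4, the inhibitory receptor that competes with CD28, had 1 to 6 reads per library. At these counts no difference between the groups was detectable for either gene.

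The 12 cytotoxic T and NK genes differed most between pools of the same group. Of the 9 tested, all had positive fold changes, with a median of 0.63, and 0 passed the test at an adjusted p under 0.05. All 9 were highest in vincristine replicate 1, as were 32.8% of all tested genes. Leaving that library out must therefore lower all 9 fold changes. Without it the median became 0.16 and 4 of the 9 turned negative. Within the vehicle group 8 of the 9 were highest in replicate 1, as were 39.8% of all tested genes. Within the vincristine group all 9 were lowest in replicate 2, and the share of all tested genes with that order was not counted. Summed over the 12 genes, the level was 17.0, 7.97 and 8.40 CPM with vehicle and 31.5, 7.41 and 13.4 CPM with vincristine.

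**Figure D3:**
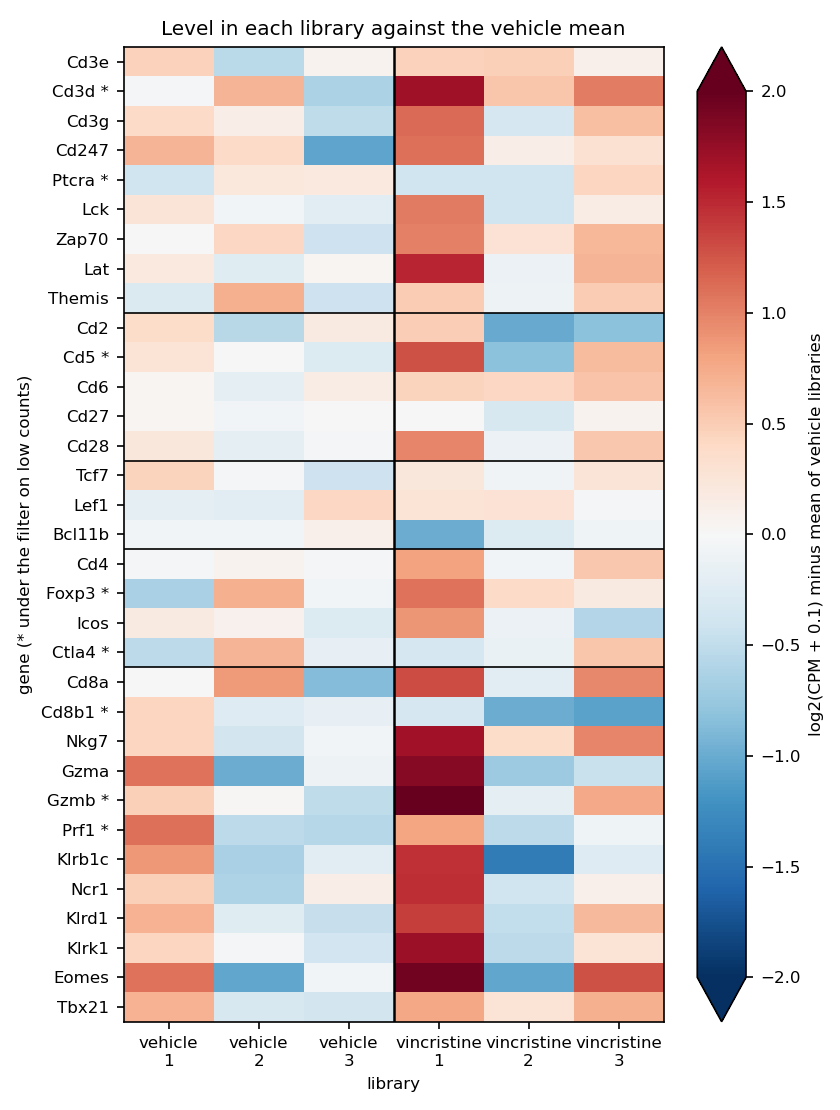
Level of each of the 33 genes (rows, grouped by role as in the plot of reads) in each of the 6 libraries (columns), as log2(CPM + 0.1) minus the mean over the 3 vehicle libraries, with red above and blue below that mean and colours capped at 2; genes with an asterisk were under the filter on low counts. The column of vincristine replicate 1 is red for most genes, with a median of 1.01 over the tested genes, while vincristine replicates 2 and 3 have medians of -0.11 and 0.30.

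Nkg7, a granule membrane protein of cytotoxic lymphocytes, had the largest log2 fold change of the tested members. Its reads were 32, 19 and 25 in the vehicle pools and 57, 33 and 69 in the vincristine pools. In CPM these were 1.79, 0.990 and 1.25 against 4.41, 1.72 and 2.66. Vincristine replicate 2 lay just below vehicle replicate 1, so the groups overlapped by 1 library. The log2 fold change was 1.10 ± 0.40 with an interval of 0.15 to 2.05, an unadjusted p of 0.0286 and an adjusted p of 0.369 in edgeR, and DESeq2 gave an adjusted p of 0.204. Without vincristine replicate 1 the estimate was 0.72 (adjusted p = 0.414, edgeR). Nkg7 lies at chr7:43437073-43438249 of GRCm38, and no other annotated exon overlaps it.

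Gzma, the tryptase granzyme A, had 57, 13 and 27 reads with vehicle and 69, 16 and 27 with vincristine. Its level ran from 0.677 to 3.19 CPM among the vehicle pools, a 4.71-fold span, and from 0.835 to 5.34 CPM among the vincristine pools, a 6.40-fold span. Replicate 1 was the highest in both groups. The fold change of 0.39 ± 0.83 had an interval of -1.56 to 2.35 and became -0.86 without vincristine replicate 1. Gzmb, granzyme B, which cleaves after aspartate, was under the filter with 7, 5 and 3 reads with vehicle and 23, 4 and 13 with vincristine. Of its 40 vincristine reads, 23 came from replicate 1, the shallowest library. Prf1, which encodes the pore-forming perforin, had 21, 6 and 6 reads with vehicle and 12, 6 and 12 with vincristine, and replicate 1 again held the highest CPM of each group.

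NK receptors repeated that order of the pools. Klrb1c, which encodes the NK1.1 antigen of C57BL/6 mice, was at 2.13, 0.677 and 0.950 CPM with vehicle and 3.25, 0.365 and 0.925 CPM with vincristine. Both the highest and the lowest pool were vincristine pools, and its fold change of 0.19 ± 0.78 became -0.88 without replicate 1. Ncr1, the activating receptor NKp46, had 22, 10 and 19 reads with vehicle and 33, 12 and 24 with vincristine. At 0.53 ± 0.58 with all libraries and -0.18 without vincristine replicate 1, its estimate also changed sign. Klrk1, the activating receptor NKG2D, was at 2.63, 1.88 and 1.45 CPM with vehicle and 6.58, 1.31 and 2.35 CPM with vincristine, and its fold changes were 0.74 ± 0.58 with and -0.09 without that library. Klrd1, the CD94 chain that pairs with NKG2 receptors, had 32, 17 and 15 reads with vehicle and 38, 14 and 45 with vincristine, with fold changes of 0.63 ± 0.55 and 0.16. Klrb1c, Klrd1 and Klrk1 lie in the natural killer gene complex on chromosome 6, with Klrd1 at chr6:129591782-129598775 and Klrk1 at chr6:129610323-129623864.

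The T-box factors of these lineages, Eomes and Tbx21, had few reads. Eomes had 10, 1 and 4 reads with vehicle and 14, 1 and 17 with vincristine, which gave the widest interval of all members, from -1.20 to 3.36 around a fold change of 1.08 ± 0.97, which was 0.54 without vincristine replicate 1. Tbx21, which encodes T-bet, had 17, 8 and 8 reads with vehicle and 13, 13 and 25 with vincristine, with fold changes of 0.59 ± 0.42 with and 0.51 without vincristine replicate 1. Cd8a, the alpha chain of the CD8 coreceptor, was at 0.448, 0.886 and 0.200 CPM with vehicle and 1.24, 0.365 and 0.963 CPM with vincristine, a fold change of 0.71 ± 0.61, or 0.44 without that library. Cd8b1, the CD8 beta chain that conventional cytotoxic T cells pair with it, had 13, 8 and 9 reads with vehicle and 5, 4 and 5 with vincristine. Unlike Cd8a, every vincristine pool of Cd8b1 lay below every vehicle pool, as in 9.51% of all tested genes. Cd8b1 was under the filter, with at most 13 reads in a library. Fitted without the filter on low counts, Cd8b1 gave a log2 fold change of -1.09 ± 0.50 (adjusted p = 0.579, edgeR), and the difference between the 2 CD8 chains was not tested.

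Levels of the cytotoxic genes followed each other from library to library. Over the 36 pairs of the 9 tested genes, Pearson's r of log2 CPM across the 6 libraries had a median of 0.82 and ran from 0.24 to 0.96. With each library taken as its deviation from its group mean, the median was 0.84 and all 36 values were positive. The 21 pairs of the 7 tested T-cell receptor genes had a median of 0.62 and ran from -0.49 to 0.92. All pairs share the same 6 libraries and their depth, and vincristine replicate 1 carries much of the range, so these values describe the libraries and bear no p. Whether a shared sequence has a part in this was not tested. For 3 tested NK and granule genes, chosen because their windows hold the letters marked below, the sequences before the start sites are shown. They are the 250 bases upstream of the RefSeq start on GRCm38.p6, written 5′ to 3′ on the gene's own strand. Capitals mark the letters TGTGGTT, a core that RUNX factors bind, or their reverse complement.
Gzma, chr13:113100982-113101231, minus strand: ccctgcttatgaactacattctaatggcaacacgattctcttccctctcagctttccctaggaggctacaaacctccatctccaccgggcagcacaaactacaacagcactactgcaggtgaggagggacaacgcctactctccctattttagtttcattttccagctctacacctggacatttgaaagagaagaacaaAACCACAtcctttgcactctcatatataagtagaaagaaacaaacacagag
Ncr1, chr7:4337465-4337714, plus strand: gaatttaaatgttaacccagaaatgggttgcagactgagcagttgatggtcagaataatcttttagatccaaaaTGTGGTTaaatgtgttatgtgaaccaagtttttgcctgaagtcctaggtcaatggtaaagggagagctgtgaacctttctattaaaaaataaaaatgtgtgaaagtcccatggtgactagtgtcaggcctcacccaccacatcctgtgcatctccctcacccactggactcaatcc
Klrk1, chr6:129623865-129624114, minus strand: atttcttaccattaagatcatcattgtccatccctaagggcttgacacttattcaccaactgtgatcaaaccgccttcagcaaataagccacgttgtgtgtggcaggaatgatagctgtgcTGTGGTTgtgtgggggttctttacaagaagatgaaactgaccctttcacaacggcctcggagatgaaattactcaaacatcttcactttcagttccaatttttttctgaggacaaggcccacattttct
RefSeq windows were found for 26 of the 33 members, some with several start sites, 36 windows in all. Members are counted here by gene with any matching window, while the percentages are of single windows, so their units differ. On either strand, TGTGGTT stood in the windows of 5 members, Gzma, Gzmb, Klrk1, Lck and Ncr1, and in 4.40% of all 32851 windows of the same length. GGTGTGA, a core of T-box factors, stood in the window of 1 member, Nkg7, and in 3.33% of all windows; GENCODE places that match inside the annotated gene. The motifs do not overlap each other in any of these windows. Among the other tested cytotoxic genes, Nkg7, Klrb1c, Eomes, Tbx21 and Cd8a had windows without the RUNX letters. A match is a run of letters and was not measured as a binding site.

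Levels between genes can be compared only per length of exon, as RPKM, which is CPM per kilobase of exon. On that scale the vehicle pools had most Gzma, at 1.73 ± 1.29 RPKM (SD, n = 3), and Nkg7, at 1.47 ± 0.448 RPKM. Bcl11b at 1.21 ± 0.0781, Tcf7 at 1.14 ± 0.351, Lck at 1.08 ± 0.184 and Cd2 at 0.941 ± 0.307 RPKM followed. Neighbours in this order did not differ beyond their spread. Cd4 was at 0.552 ± 0.0258 RPKM, above the CD3 chains Cd3g at 0.239 ± 0.0790, Cd3d at 0.175 ± 0.104 and Cd3e at 0.108 ± 0.0436 RPKM. Foxp3, at 0.0150 ± 0.0174 RPKM from 4 vehicle reads, had the lowest mean. It did not differ beyond the spread from Ptcra, at 0.0265 ± 0.0230 RPKM from 2 vehicle reads. With vincristine, Nkg7 was at 3.21 ± 1.49 and Gzma at 2.39 ± 2.53 RPKM.

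Side by side, the fold changes had medians of 0.42 for the T-cell receptor genes, 0.29 for the helper and regulatory genes and 0.63 for the cytotoxic and NK genes, or 0.23, -0.06 and 0.16 over the same genes without vincristine replicate 1. Every one of these groups had its highest sum in vincristine replicate 1. The transcription factors had their lowest sum there, 14.7 CPM against 16.8 to 19.7 CPM with vehicle. The difference between the groups of genes was not tested.

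**Figure D4:**
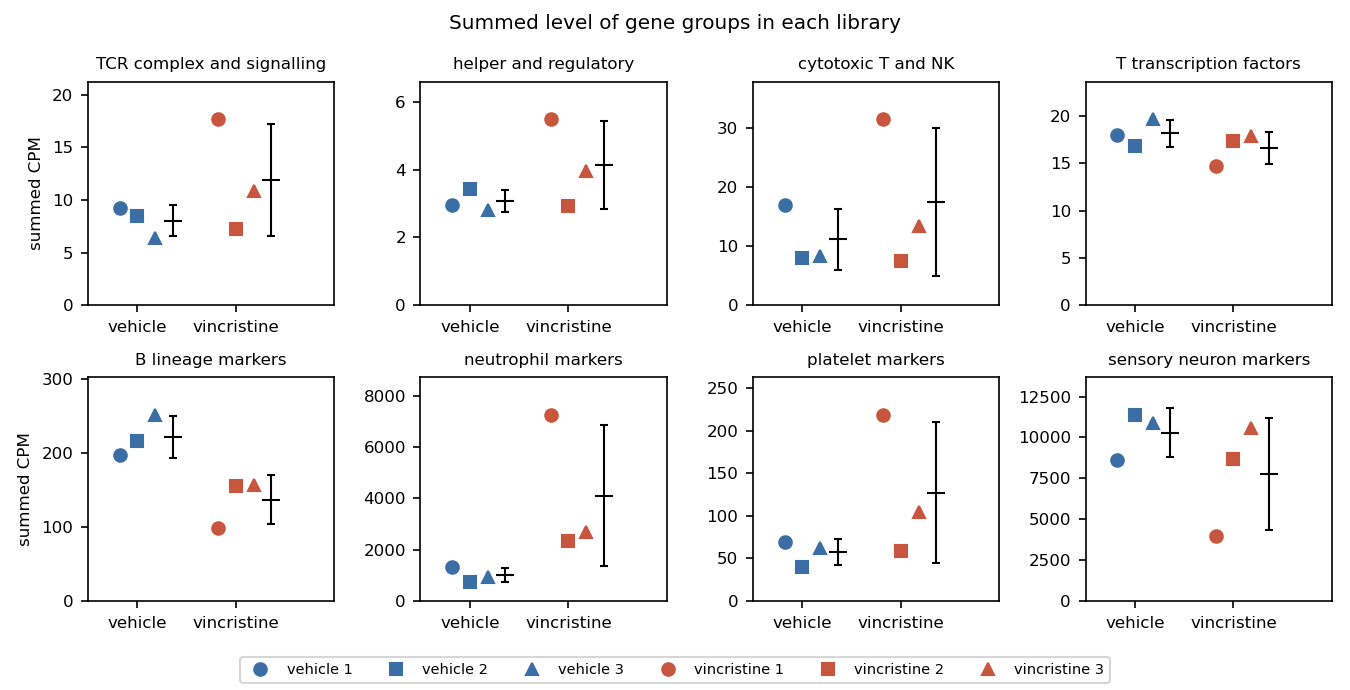
Summed CPM (vertical axes, each from 0 and on its own scale) of 4 groups of T and NK genes and 4 lists of other cell markers in each vehicle (blue) and vincristine (red) library; symbols mark replicates 1 to 3, and black bars the mean ± SD of 3 libraries. The cytotoxic genes reach 31.5 CPM in vincristine replicate 1 against 7.41 and 13.4 CPM in the other vincristine pools, the library in which neutrophil and platelet markers are also highest. The B-lineage sums are 197, 216 and 252 CPM with vehicle and 98.4, 156 and 157 CPM with vincristine. Most of each is Ebf1, at 139, 174 and 169 CPM against 87.5, 151 and 151 CPM, so the panel shows little of the other markers.

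B-lineage markers and lymphoid precursor markers are given beside the T and NK genes. Of the 10 B-lineage markers, all were tested, all were negative and edgeR called 6 lower, among them Ms4a1 and Cd79a. Ebf1 was the exception in size, at -0.31 with an interval of -0.84 to 0.23. Their median log2 fold change was -3.23, or -3.48 without vincristine replicate 1. None of the 25 intervals of the T and NK genes reached that value, the lowest bound being -1.65 for Klrb1c, and the difference between the lists was not tested. Of 6 lymphoid precursor markers 4 were tested, all negative with a median of -1.15, and edgeR called 1 lower, Rag1. The intervals of Klrb1c, Cd2, Gzma and Eomes reached that smaller median, with lower bounds of -1.65, -1.58, -1.56 and -1.20. The median was 0.66 for monocyte and macrophage markers and 2.01 for neutrophil markers, or 0.49 and 1.27 without vincristine replicate 1. In each of these myeloid lists every marker was highest in vincristine replicate 1, as were 18 of the 25 tested T and NK genes.

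Further genes of T and NK biology were read from lists, and with all 6 libraries edgeR called 0 in each. Among 27 genes of downstream T-cell signalling, 24 were tested. An unadjusted p under 0.05 was reached by 8 with higher and 1 with lower levels, beside 8.10% and 3.27% of all tested genes. DESeq2 called 2 higher and 1 lower, beside 3.41% of all tested genes called by it. The list holds genes of leukocytes in general, such as Ptprc, which encodes CD45. Their median fold change was 0.35, or 0.20 without vincristine replicate 1. Fyb, an adaptor of T cells and myeloid cells, had 285, 256 and 258 reads with vehicle and 456, 382 and 574 with vincristine. Scaled for depth, its groups did not overlap, and its fold change was 0.87 ± 0.23 (adjusted p = 0.224 in edgeR and 0.0371 in DESeq2), or 0.58 without vincristine replicate 1. Prkcq, the protein kinase C theta of the immune synapse, had 1863, 2204 and 1919 reads with vehicle and 532, 1396 and 1755 with vincristine. Its fold change was -0.79 ± 0.21 (adjusted p = 0.231 in edgeR and 0.0258 in DESeq2). Without vincristine replicate 1 it was -0.58 (adjusted p = 0.0357, edgeR), a setting in which edgeR called 346 genes over all. The cells these Prkcq reads came from were not measured. Sensory neuron markers were lowest in vincristine replicate 1, with a median fold change of -0.45 with it and -0.11 without it. Their part in the Prkcq value was not tested.

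NK receptors and adaptors made up the next list. Of its 27 genes 12 were tested, 4 reached an unadjusted p under 0.05 with higher levels (8.10% of all tested genes did), and DESeq2 called 1 (3.41% of all). That gene was Il18rap, the accessory chain of the interleukin-18 receptor, found on NK cells, T cells and neutrophils. Its reads were 157, 125 and 153 with vehicle and 483, 329 and 443 with vincristine, and all vincristine pools lay above all vehicle pools. The fold change was 1.63 ± 0.33 (adjusted p = 0.143 in edgeR and 0.000403 in DESeq2), and 1.16 without vincristine replicate 1. Neutrophil markers were likewise highest in that library, and their part in the Il18rap value was not tested. Klrb1f, an NK receptor gene of the Nkrp1 family, followed with 11, 7 and 18 reads against 27, 25 and 35 and a fold change of 1.29 ± 0.39 (adjusted p = 0.274, edgeR). Receptors of the Klra family are near-identical copies whose uniquely aligned reads are uncertain, and they are not named singly.

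Chemokines that draw lymphocytes and the cytokine axis that sustains them were read from a further pair of lists. Of 11 chemoattractants, 7 were tested and 5 reached an unadjusted p under 0.05 with higher levels, beside 8.10% of all tested genes, with a median fold change of 0.56, or 0.39 without vincristine replicate 1. Ccl22, a ligand of CCR4, had 12, 10 and 8 reads with vehicle and 17, 25 and 30 with vincristine, and a fold change of 1.24 ± 0.29 (adjusted p = 0.193, edgeR). Cxcl9, a ligand of CXCR3, had 60, 91 and 32 reads against 201, 112 and 188 and a fold change of 1.55 ± 0.49 (adjusted p = 0.309, edgeR), or 1.02 without vincristine replicate 1. All 9 genes of the interleukin-2 and interleukin-15 axis were tested and positive, with a median of 0.23 and 3 at an unadjusted p under 0.05, beside the same 8.10%. The smallest p-values of that list belonged to Stat5a, at 0.37 ± 0.11 (adjusted p = 0.284, edgeR), and Jak3, at 0.66 ± 0.23 (adjusted p = 0.350, edgeR) or 0.42 without vincristine replicate 1, the transcription factor and the kinase of the shared cytokine pathway.

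Homing, memory and exhaustion genes had a median fold change of 0.21 over 24 tested of 31, and -0.03 without vincristine replicate 1, and an unadjusted p under 0.05 in 3 with higher and 0 with lower levels, beside 8.10% and 3.27% of all tested genes. Zbtb16, the factor PLZF of innate-like T cells, was at 1.06 ± 0.31 (adjusted p = 0.266 in edgeR and 0.0480 in DESeq2), with 326, 461 and 308 reads against 729, 753 and 640, and at 0.73 without vincristine replicate 1. Cd3e had only 5 to 12 reads per library, and the cells that the Zbtb16 reads came from were not measured. Cxcr6, a chemokine receptor of tissue T cells, was at 1.03 ± 0.32 (adjusted p = 0.292, edgeR). Of 16 effector cytokines and ligands only Ccl5, at 0.59 ± 0.53 or 0.09 without that library, and Gzmm, at 0.04 ± 0.27 or 0.09, had enough reads for the test. Ifng, the interferon of T and NK cells, had 0, 2 and 0 reads with vehicle and 2, 1 and 3 with vincristine, and Il17a and Il22 were at 0 in all 6 libraries. NKG2D ligands were found for 5 of 9 symbols and tested for 3, with Ulbp1 at 0.68 ± 0.40 and H60b at -0.34 ± 0.36.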

How the data were processed

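RNA of 6 pools of ganglia, 3 per group and 4 animals per pool, was read as single-end reads of 75 nucleotides from stranded total RNA libraries, per the labels. The deposited tables hold raw counts of reads per gene symbol, 1 table per library. STAR, SAMtools and HTSeq with mm10 (GRCm38) are the tools and build that the authors used, per the submitters' processing notes. Tool versions, annotation and strand setting were not given in the sources used here. Of all tallied alignments, 31.1% to 40.5% were not unique, 14.8% to 24.8% (the highest in vincristine replicate 1) lay outside genes and 0.253% to 0.331% were ambiguous; these summary lines stayed out of library sizes and tests.

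Testing was done in R 4.3.3 with edgeR 4.0.16, on the 16706 genes that passed filterByExpr (minimum count 10), with TMM scaling. The quasi-likelihood test was two-sided, p-values were adjusted over all these genes (Benjamini-Hochberg, threshold 0.05), and treatment was the only term, which left 4 residual degrees of freedom. Errors of fold changes are SE, and intervals are 95% intervals of the fit. RPKM used summed exon lengths of GENCODE M21, matched by symbol. The script was tested on simulated counts. Pairs of replicates differed with a chi-square per degree of freedom of 12.5 to 90.7, where sampling noise alone gives about 1, so none was a copy. Alternatives were DESeq2 1.42.0, limma-voom (limma 3.58.1), other scalings and filters, the replicate number as a block and leaving out each library; sample quality weights were added after seeing the data. The members and lists were chosen with earlier results of these data known. All 33 members were named, and of each pathway list the called genes or else the 2 tested genes with the smallest p.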

Additional observations from a re-analysis of the deposited data

How the results depend on the processing

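The T and NK genes had 0 calls under every setting run, with lowest adjusted p-values from 0.121 to 0.705. Their median fold change stayed positive, from 0.06 with sample quality weights to 0.69, and from 0.17 to 0.69 with a library left out, over the genes each setting tested. Over all genes, edgeR called 60, DESeq2 569, limma-voom 35, sample quality weights 474, no filter on low counts 99, and a threshold of 0.1 gave 125. Leaving out a library gave 0 to 346 calls: 0 without each vehicle replicate (1462, 1062 and 1404 at an unadjusted p under 0.05), and 346, 6 and 18 without vincristine replicates 1, 2 and 3. With the replicate block, all genes called were 261 and T and NK genes 0, with a median of 0.46. Deviations of same-numbered pools correlated at 0.428, 0.248 and -0.0944, and not every pool correlated best with its own number. With 3 pools per group these values cannot tell whether same-numbered pools shared a batch.

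Of 364 single-gene values under alternatives that can move a fold change, 20 changed sign, in 10 of 25 genes; the cause was not tested. limma-voom gave -0.04 for Icos and -0.20 for Klrb1c. Quality weights gave -0.14 for Lck, -0.24 for Icos, -0.32 for Gzma, -0.84 for Klrb1c, -0.05 for Ncr1, -0.14 for Klrk1 and -0.03 for Eomes. With a library left out, Klrb1c ranged from -0.88 to 0.80, Gzma from -0.86 to 1.16, Icos from -0.42 to 0.47, Ncr1 from -0.18 to 0.89, Lck from -0.10 to 0.65, Klrk1 from -0.09 to 1.15, Tcf7 from -0.08 to 0.36, Cd247 from -0.01 to 0.83 and Cd27 from -0.20 to 0.05.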

Other observations

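A chemoattractant gene from the lists, chosen after its values were seen, stood apart in a different vincristine pool from the pool in which the cytotoxic genes were highest. Cxcl10, a ligand of CXCR3 on activated T and NK cells, had 48, 96 and 53 reads with vehicle and 127, 78 and 508 with vincristine, so that replicate 3 held most of its vincristine reads, with a fold change of 1.70 ± 0.56 (adjusted p = 0.326, edgeR), or 1.80 without vincristine replicate 1. Lck and Cd3g did not share that order: in CPM both were higher in vincristine replicate 1 than in replicate 3.

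Hcst, which encodes the DAP10 adaptor that carries the signal of NKG2D, was also picked after its values were seen. It had 33, 6 and 8 reads with vehicle and 48, 28 and 45 with vincristine, with a fold change of 1.41 ± 0.69 (adjusted p = 0.505, edgeR), or 0.94 without vincristine replicate 1. Vehicle replicate 1 held most of its vehicle reads, as it did for Gzma and Prf1.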
